A study of Mus musculus with 18 samples.

Results

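The apolipoprotein genes are described here, the genes for the proteins that form and steer lipoprotein particles in blood. The 10 genes Apoa1, Apoc3, Apoa4, Apoa5, Apoa2, Apob, Apoe, Apoc1, Apoc2 and Apom were chosen by name from 21938 protein-coding genes of the GENCODE vM21 annotation, each with 50 kb on both sides of its gene body. Apoa1, Apoc3, Apoa4 and Apoa5 lie next to each other on chromosome 9, and Apoe, Apoc1 and Apoc2 on chromosome 7, so the 10 genes make up 5 loci with 615 kb of sequence. Chromatin immunoprecipitation and sequencing (ChIP-Seq) was done in livers of male C57BL/6 mice. Lamin B1 and H3K9me3 were profiled in wild-type mice aged 3 months (young) and 21 months (old), with 2 replicates per antibody and age. Foxa2 was profiled in Zmpste24 KO mice (the mutants), null for this protease gene, and in wild-type littermates. All of these were 12 weeks old, and each genotype had 3 replicates. Chromatin came from whole liver and so from all of its cell types.

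The authors merged the replicates before calling regions, so each of the 6 lists used here is 1 set of positions with no height, score or value per mouse. No spread between replicates can be given and no test was made. In the main setting, each count of called genes in the text is set beside the share of all protein-coding genes that has the same call. Neighbouring genes of a cluster share their regions and are not independent. The lists hold 1624 young and 1519 old lamin B1 domains, 2784 young and 2496 old H3K9me3 regions, and 4960 wild-type and 8177 mutant Foxa2 sites. They carry no read counts. By the study's library statistics, more reads stood behind the young than the old lamin B1 list and behind the old than the young H3K9me3 list, and the Foxa2 lists were called from equal numbers. The part of depth in a missing call was not tested. As a check of the tissue, 7 of 8 genes typical of hepatocytes (Cps1, Hnf4a, Fgb, Alb, Foxa3, Tat and Ttr, without Serpina1a) had a Foxa2 site within 50 kb in each genotype. Of 8 genes typical of other liver cells, 1 (Stab2) did in the wild type and 2 (Clec4f and Stab2) in the mutants. Over all protein-coding genes the share was 30.5% in the wild type and 38.5% in the mutants.

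Hepatocytes load triglyceride onto apolipoprotein B and secrete it as very low density lipoprotein, and they release apolipoproteins A-I and A-II for high density lipoprotein. Smaller exchangeable apolipoproteins then set how fast these particles are hydrolysed by lipases and taken up by receptors. Foxa2 is a forkhead factor that binds liver enhancers and can open closed chromatin. Lamin B1 is a protein of the nuclear lamina, the meshwork under the nuclear envelope, where much silent chromatin is held, and H3K9me3 is a histone mark of constitutive heterochromatin. Zmpste24 is the protease that finishes the processing of prelamin A, another lamina protein. The lists thus ask where the apolipoprotein genes lie relative to the lamina in young and old livers, and where Foxa2 was bound near them with an intact and a defective lamina.

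Sites of Foxa2 at 4 of the loci are given first as sequence, 5′ to 3′ from the mm10 (GRCm38.p6) reference, to show which letters lie under the calls discussed below. Capitals mark the forkhead core TGTTTAC and the Hnf4 word CAAAGTCCA with at most 1 mismatch, searched on both strands. The promoters are RefSeq intervals from 250 bases before to 50 bases after a start site, and the other 2 runs are the central 300 bases of a wild-type site.
Apoa2 promoter, chr1:171224804-171225103, plus strand, 257 bases inside the wild-type and 300 inside the mutant site: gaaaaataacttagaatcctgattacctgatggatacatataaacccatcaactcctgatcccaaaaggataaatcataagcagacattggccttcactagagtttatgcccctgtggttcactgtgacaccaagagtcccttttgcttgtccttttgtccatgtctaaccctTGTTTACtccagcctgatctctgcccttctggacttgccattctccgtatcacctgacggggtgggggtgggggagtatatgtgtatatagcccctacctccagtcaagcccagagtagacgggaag
Upstream of Apoe, chr7:19700973-19701272, minus strand (the strand of Apoe), called in both genotypes: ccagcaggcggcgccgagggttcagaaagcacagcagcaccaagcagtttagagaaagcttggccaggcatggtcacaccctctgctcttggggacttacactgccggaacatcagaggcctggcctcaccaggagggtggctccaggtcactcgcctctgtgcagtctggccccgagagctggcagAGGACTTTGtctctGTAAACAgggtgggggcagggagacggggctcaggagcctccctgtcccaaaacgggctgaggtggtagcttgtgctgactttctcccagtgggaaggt
Apob promoter, chr12:7977427-7977726, plus strand, 263 bases inside the wild-type site and 0 inside a mutant site: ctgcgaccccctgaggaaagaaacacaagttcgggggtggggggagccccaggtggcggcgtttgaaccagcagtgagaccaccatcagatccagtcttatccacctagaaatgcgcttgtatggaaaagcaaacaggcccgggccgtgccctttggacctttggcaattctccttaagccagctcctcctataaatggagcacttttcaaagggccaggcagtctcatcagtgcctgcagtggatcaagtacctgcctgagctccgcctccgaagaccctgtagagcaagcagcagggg
Between Apoa4 and Apoa5, chr9:46258863-46259162, plus strand, called in the wild type alone: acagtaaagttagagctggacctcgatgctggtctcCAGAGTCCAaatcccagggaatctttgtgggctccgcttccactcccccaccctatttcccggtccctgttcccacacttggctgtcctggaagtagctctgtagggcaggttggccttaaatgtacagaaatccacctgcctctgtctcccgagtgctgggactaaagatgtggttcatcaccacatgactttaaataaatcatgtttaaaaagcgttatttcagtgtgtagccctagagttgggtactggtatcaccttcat

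The first question was where Foxa2 was bound near the apolipoprotein genes in wild-type and mutant livers. A wild-type site lay in the window of 9 of the 10 genes, which Apom lacked, and 30.5% of protein-coding genes had such a site. A mutant site lay in the window of 7 genes (Apoa4, Apoa5, Apoe, Apoc1, Apoc2, Apoa2 and Apob), beside 38.5% of protein-coding genes. The same 7 genes had a site of each genotype in the window, overlapping or not, a call made for 19.2% of protein-coding genes. Counted once per locus these were 6 wild-type and 4 mutant sites, although the mutant list as a whole was the longer. Within 5 kb of a start site the same 3 genes, Apoa2, Apob and Apoe, had a site midpoint in each genotype. This call was made for 5.52% of protein-coding genes in the wild type, 5.57% in the mutants and 1.91% in both.

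**Figure D1:**
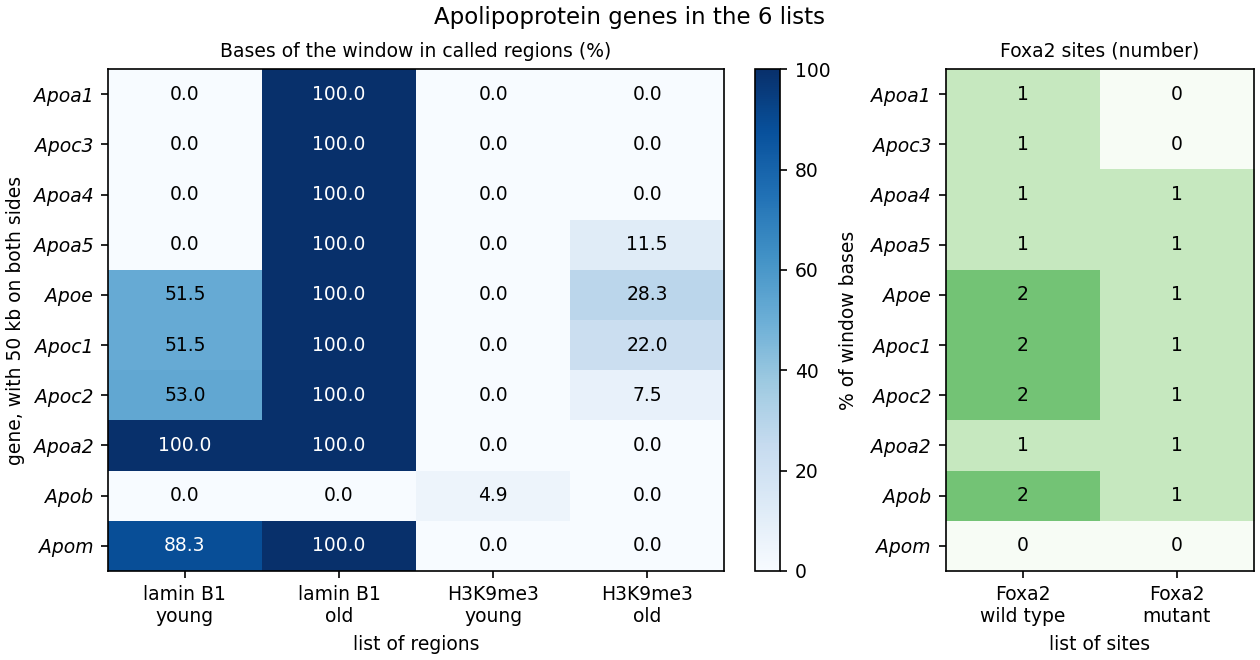
Overview of the 10 apolipoprotein genes (rows), each with 50 kb on both sides, in the 6 lists (columns). The left panel gives the percent of window bases inside called lamin B1 or H3K9me3 regions and the right panel the number of Foxa2 sites. Lamin B1 in old livers filled 9 of the 10 windows, and the share of protein-coding genes with a filled window was not computed. The genes of each cluster lie in a common old domain, so their rows are not independent. Apob and Apom stand apart from the other genes in opposite lists.

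Apoa2, which encodes the second major protein of high density lipoprotein, had a site over its start site in both genotypes. The gene lies at chr1:171225054-171226379. The wild-type site was at chr1:171224847-171225168, with its midpoint 46 bp from the start site, and 0.255% of protein-coding genes had a wild-type site as near. The mutant site was at chr1:171224795-171225655, with its midpoint 171 bp away, and contained the wild-type site whole. Both overlap an exon of Apoa2. The printed promoter holds 1 forkhead core, and the wider mutant site in addition holds 1 match to the Hnf4 word, 513 bases from the core.

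Apoe, the ligand by which the liver takes up remnant particles, had a site upstream of its start site in both genotypes. The gene lies on the minus strand at chr7:19696109-19699188. The wild-type site was at chr7:19700949-19701297 and the mutant site at chr7:19700648-19701671, with midpoints 1.94 kb and 1.97 kb from the start site. The wild-type site is intergenic, and the mutant site reaches into an exon of Tomm40, the neighbouring gene for a mitochondrial import pore. In the printed run the forkhead core and the Hnf4 word stand 5 bases apart. Of the 10 called sites at the loci, the 4 sites of Apoa2 and Apoe were those that overlapped a site of the other genotype and those that held the forkhead core. At each of these genes the mutant site contains the wild-type site, so both hold the same core. Over the whole lists, 27.2% of wild-type and 16.7% of mutant sites overlapped a site of the other genotype.

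The overlapping sites differed in width between the genotypes. At Apoe the site spanned 349 bp in the wild type and 1024 bp in the mutants, a ratio of 2.93. At Apoa2 it spanned 322 bp and 861 bp, a ratio of 2.67. The wild-type sites were among the narrowest of their list, in which 2.98% of sites were narrower than that of Apoe and 1.37% than that of Apoa2. The mutant sites were of middling width, with 63.0% and 47.1% of the mutant list narrower. Among all 1348 wild-type sites that overlapped a mutant site, the mutant site was the wider in 44.1%, the median ratio was 0.935, and 4.08% reached a ratio of 2.5 or more. The wild-type sites made up 34.1% of the mutant site at Apoe and 37.4% at Apoa2, so neither pair counted as shared when 50% of each site had to overlap. By that rule 913 wild-type sites (67.7% of the shared ones) were still shared.

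Apob encodes the scaffold protein of very low density lipoprotein and lies at chr12:7977648-8016835. In the wild type a site at chr12:7977464-7977976 covered its start site, with the midpoint 72 bp away, and 0.387% of protein-coding genes had a wild-type site as near. In the mutants no site was called there. The nearest mutant site, at chr12:7978484-7979124 in an intron of Apob, had its midpoint 1.16 kb from the start site, and the 2 sites were 0.507 kb apart. A second wild-type site, at chr12:7932230-7933374 in an intron of the lincRNA Gm48633, lay 44.8 kb upstream of the start site and overlapped no mutant site. Neither wild-type site nor the mutant site held the forkhead core TGTTTAC. The mutant site held 1 match to the variant TATTTAC. No other protein-coding gene lies in the window of Apob, and the mutant list had 5 more sites upstream of it, 63.6, 99.7, 140, 168 and 1045 kb from the start site, for which the start site of Apob was the nearest of a protein-coding gene. None of those 5 overlapped a wild-type site, and 16.7% of all mutant sites did.

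In the Apoa1 cluster no Foxa2 site lay at a promoter in either genotype. Apoa1 encodes the main protein of high density lipoprotein, Apoc3 an inhibitor of triglyceride clearance, Apoa4 an apolipoprotein of chylomicrons and high density lipoprotein, and Apoa5 a protein that promotes triglyceride hydrolysis. The genes lie at chr9:46228580-46230466, chr9:46232933-46235636, chr9:46240696-46243459 and chr9:46268633-46271919. The 1 wild-type site, at chr9:46258529-46259496, was intergenic between Apoa4 and Apoa5, and its midpoint was 30.4 kb from the start site of Apoa1, 23.4 kb from Apoc3, 18.3 kb from Apoa4 and 9.62 kb from Apoa5. The 1 mutant site, at chr9:46292017-46293136, overlapped exons and introns of Bud13, which encodes a splicing factor, and its midpoint was 23.9 kb from Apoa5 and 64.0 kb from Apoa1. It was inside the windows of Apoa4 and Apoa5 and outside those of Apoa1 and Apoc3. The 2 sites were 32.5 kb apart. The wild-type site held 1 match to the Hnf4 word, shown in the printed run, and the mutant site none of the 4 words searched.

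In the Apoe cluster Apoc1, which modulates the uptake and exchange of lipoprotein lipids, lies at chr7:19689481-19692660. Apoc2, the activator of lipoprotein lipase, lies at chr7:19671579-19677941. A second wild-type site, at chr7:19685347-19685702 between these genes, was intergenic, and its nearest start site was that of the related apolipoprotein gene Apoc4, 4.05 kb away. It overlapped no mutant site and held none of the words. Its midpoint was 7.13 kb from the start site of Apoc1 and 7.58 kb from that of Apoc2. The nearest mutant site was the shared site upstream of Apoe, 8.50 kb from Apoc1 and 23.2 kb from Apoc2.

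Apom encodes a carrier of sphingosine-1-phosphate in high density lipoprotein and lies at chr17:35128997-35132050. No Foxa2 site was called in its window. The nearest wild-type site was 1009 kb from its start site, and 89.6% of protein-coding genes had a nearer or equally near site. The nearest mutant site was 109 kb away, with 51.7% of genes as near. The median distance over all protein-coding genes was 150 kb in the wild type and 103 kb in the mutants. From the nearest to the farthest site the genes stood in the order Apoa2, Apob, Apoe, Apoc1, Apoc2, Apoa5, Apoa4, Apoc3, Apoa1 and Apom, in both genotypes. The genes of a cluster are measured to the same few sites, so their order within it follows in large part from their positions. With 1 list per genotype there is no spread against which neighbours in this order could be told apart.

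**Figure D2:**
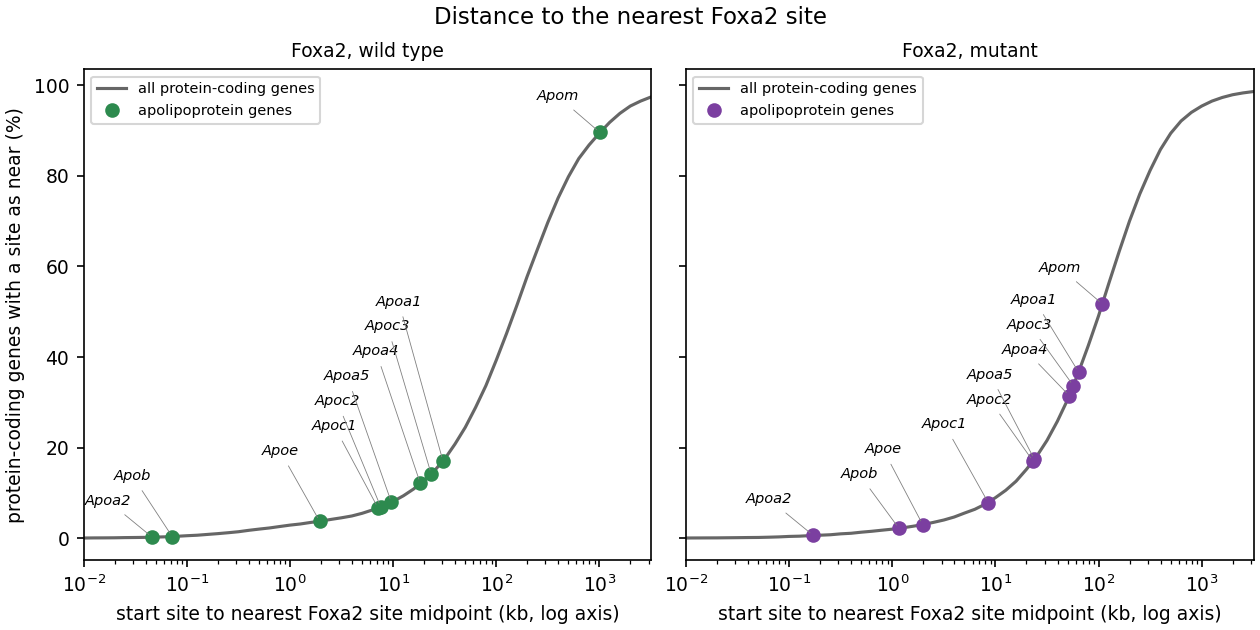
Distance from each start site to the nearest Foxa2 site midpoint (x axis, kb, log scale) against the percent of protein-coding genes with a site as near (y axis), for wild-type (left) and mutant (right) livers. The line is the curve over all protein-coding genes, on which each apolipoprotein gene must lie. Apoa2, Apob and Apoe are at the low end in both panels, and Apom is at 89.6% in the wild type and 51.7% in the mutants.

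Words in the sites were compared with the lists they came from. The forkhead core TGTTTAC was found in 2 of the 6 wild-type sites at the loci and in 27.7% of all wild-type sites, and in 2 of 4 mutant sites beside 23.4% of all mutant sites. The 2 mutant sites with the core contain the 2 wild-type sites whole, so the same cores are counted in both lists. The Hnf4 word was found in 3 of 6 wild-type sites (33.4% of the list) and 2 of 4 mutant sites (29.7%). The match upstream of Apoe is likewise the same in both lists. The GATA core AGATAA was in 1 wild-type site, the upstream site of Apob (41.7%), and in no mutant site (46.4%). The C/EBP word TTGCGCAA, with at most 1 mismatch, was in none of the 10 sites, beside 15.8% of wild-type and 13.1% of mutant sites. Over the lists, 43.7% of the wild-type sites shared with the mutants and 21.7% of the others held the forkhead core. The RefSeq table gave 12 promoters for 8 of the 10 genes. The forkhead core was in 2 of them, the printed promoter of Apoa2 and an internal promoter of Apoe, and in 3.65% of all 32851 promoters. The Hnf4 word was in 4 (of Apoa2, Apoa4 and Apoe) and in 8.47% of all promoters. The GATA core and the C/EBP word were in none of the 12, beside 11.2% and 5.92%. A match describes the letters and does not show binding, and a word that is missing says nothing about the factor.

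The place of a site in its list went with whether it was shared. The lists are not sorted by position, and what orders the rows is not given in the sources used here. With the rows split into 5 equal parts, 70.1% of wild-type and 54.3% of mutant sites in the first part overlapped a site of the other genotype, and 8.06% and 3.85% in the last part. The shared Apoe site stood in row 251 of the wild-type and row 82 of the mutant list, and the shared Apoa2 site in rows 976 and 1433, all in the first part of their list. The 6 unshared sites of the loci stood further down, from row 2129 to row 3707 in the wild type and in rows 2571 and 7081 in the mutants. Whether the order reflects the strength of a site was not tested, and a missing call in the other genotype cannot be told apart from a signal just under its threshold.

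**Figure D3:**
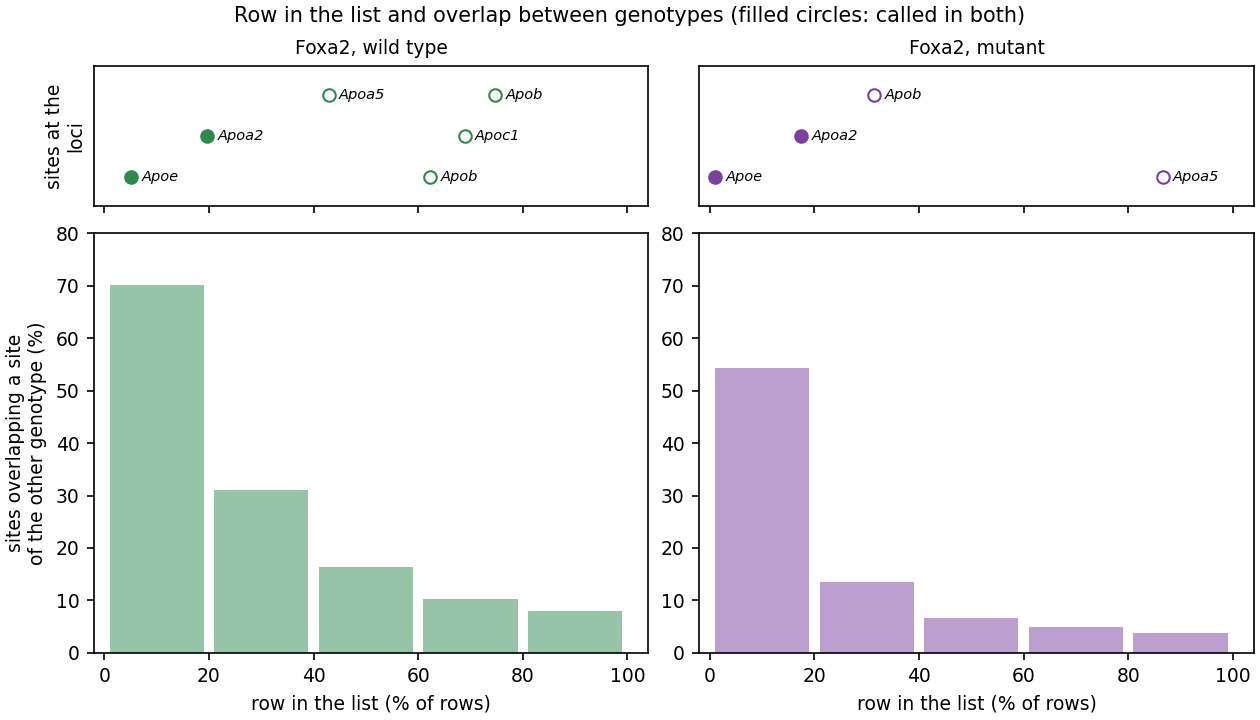
Row of each Foxa2 site in its list (x axis, percent of rows) for wild-type (left) and mutant (right) livers. Bars give the percent of sites in each of 5 equal parts of the rows that overlap a site of the other genotype, and circles above them mark the sites at the apolipoprotein loci, named by the nearest of the 10 genes and filled where called in both genotypes. The filled circles of Apoe and Apoa2 stand in the first of the 5 parts of both lists.

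The second question was how the loci lay relative to lamin B1 domains in young and old livers. In young livers the gene bodies of 2 of the 10 genes, Apoa2 and Apom, were inside a domain, and 38.8% of protein-coding genes were touched by 1. In old livers 9 gene bodies were inside a domain, all but that of Apob, and 64.8% of protein-coding genes were touched by 1. The 7 genes of the 2 clusters were outside the young and wholly inside the old domains, a combination that 27.3% of protein-coding genes had. Counting any gene body touched in old livers, the share was 30.1%. No apolipoprotein gene was touched in young and outside in old livers, as 4.14% of protein-coding genes were. Apob was outside at both ages, like 31.0% of protein-coding genes. As the clusters each lie in 1 old domain, the 7 genes stand for 2 loci. Domains covered 270 kb of the 615 kb of the 5 loci in young (43.9%) and 475 kb in old livers (77.4%). Genome-wide they covered 466 Mb and 930 Mb, so the list as a whole grew as well.

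The Apoa1 cluster lay far from young domains. The nearest young domain ended at chr9:45230000, 999 kb from Apoa1, and none of the 143 kb of the locus was covered. In old livers the whole locus was inside a domain at chr9:44640001-47000000. It is 2.36 Mb long, holds 40 protein-coding start sites and was covered to 25.0% by a young domain. It is the 55th longest of the 1519 old domains. Of the Foxa2 lists, 11 wild-type and 7 mutant sites lay in it.

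The Apoe cluster lay in a gap between 2 young domains. These were at chr7:19270001-19670000 and chr7:19720001-19880000, and the 3 genes were inside the 50 kb between them. The end of Apoc2 was 1.58 kb from the first domain and the start site of Apoe 20.8 kb from the second. Both Foxa2 sites of the wild type and the mutant site lay in the gap as well. In old livers a single domain at chr7:18790001-19980000, 1.19 Mb long, covered the gap and the whole locus. Of 114 gaps of 50 kb between neighbouring young domains, 81 (71.1%) were wholly covered in old livers. The gap spans 5 of the 10 kb windows used for calling.

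**Figure D4:**
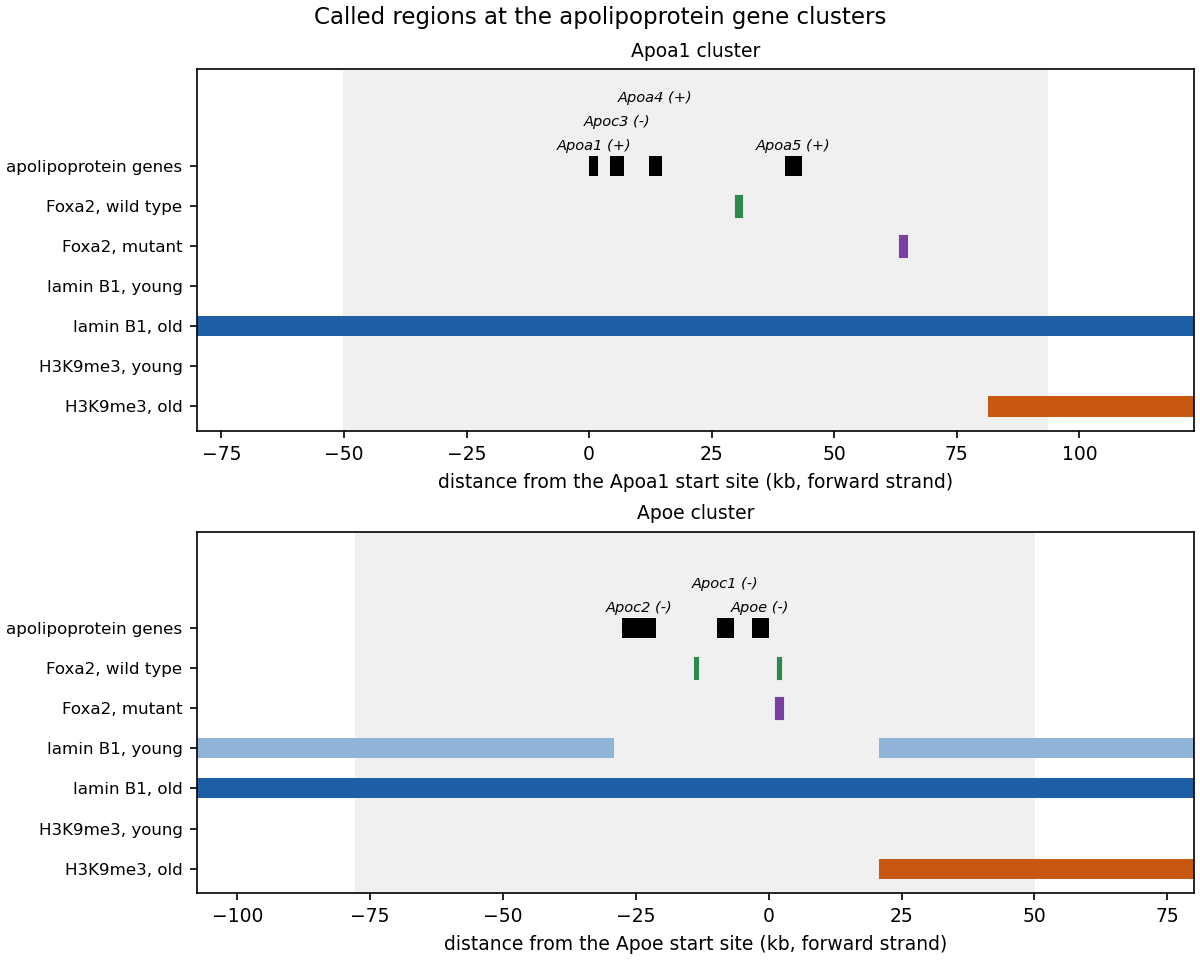
Maps of the Apoa1 cluster (top) and the Apoe cluster (bottom). The x axis is the distance from the start site of Apoa1 or Apoe in kb on the forward strand, the grey band is the locus with its 50 kb flanks, black boxes are the apolipoprotein genes with their strand, and coloured bars are called sites and domains. The young lamin B1 track is empty at the Apoa1 cluster and leaves a gap of 50 kb at the Apoe cluster, and the old track is filled throughout both.

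The 3 genes that stand alone differed from each other. Apoa2 was inside a domain at both ages, at chr1:170640001-171480000 in young (840 kb) and chr1:170270001-171660000 in old livers (1390 kb), and its Foxa2 sites were inside as well. Apom was inside a young domain of 330 kb, chr17:34840001-35170000, which covered 88.3% of its window, and inside an old domain of 1470 kb, chr17:33890001-35360000, which covered the window whole. Young domains covered 33.3% of that old domain, which holds 98 protein-coding start sites. Apob was far from young domains, with the nearest 3018 kb from its window, and the nearest old domain, chr12:8220001-8550000, was 153 kb away. Apob is the member with a Foxa2 site at its start site and no lamin B1 domain at either age, whereas Apoa2 has a Foxa2 site at its start site inside domains of both ages. The lamin B1 and Foxa2 lists come from different mice, so these overlaps compare positions and not the same nuclei.

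H3K9me3 was not called over the gene body of any of the 10 genes in young or old livers. Among protein-coding genes 16.5% were touched in young and 29.6% in old livers. The 10 genes are shorter at the median, with a window of 103 kb beside 117 kb for all protein-coding genes. A longer gene body is more easily touched, and length was not taken into account in this or the other shares. Regions reached into the edge of a few windows. In young livers 1 window, that of Apob, was touched (25.6% of protein-coding genes), by a region of 40 kb at chr12:8060001-8100000 that began 43.2 kb beyond the end of the gene. It was not called in old livers. In old livers the windows of Apoa5, Apoe, Apoc1 and Apoc2 were touched (41.6% of protein-coding genes). The region near Apoa5, chr9:46310001-46990000, began 38.1 kb beyond the gene. A young region, chr9:46360001-46730000, lay inside it and stopped short of the window, 88.1 kb from Apoa5. The region near Apoe, chr7:19720001-19800000, began 20.8 kb from its start site, in the same 10 kb window as the second young lamin B1 domain, and young H3K9me3 covered none of it. The nearest regions to Apoa2 were 155 kb from the gene in young and 125 kb in old livers, and those to Apom 279 kb and 199 kb. None of the 10 Foxa2 sites overlapped an H3K9me3 region. The age of the H3K9me3 lists is known from their names alone.

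**Figure D5:**
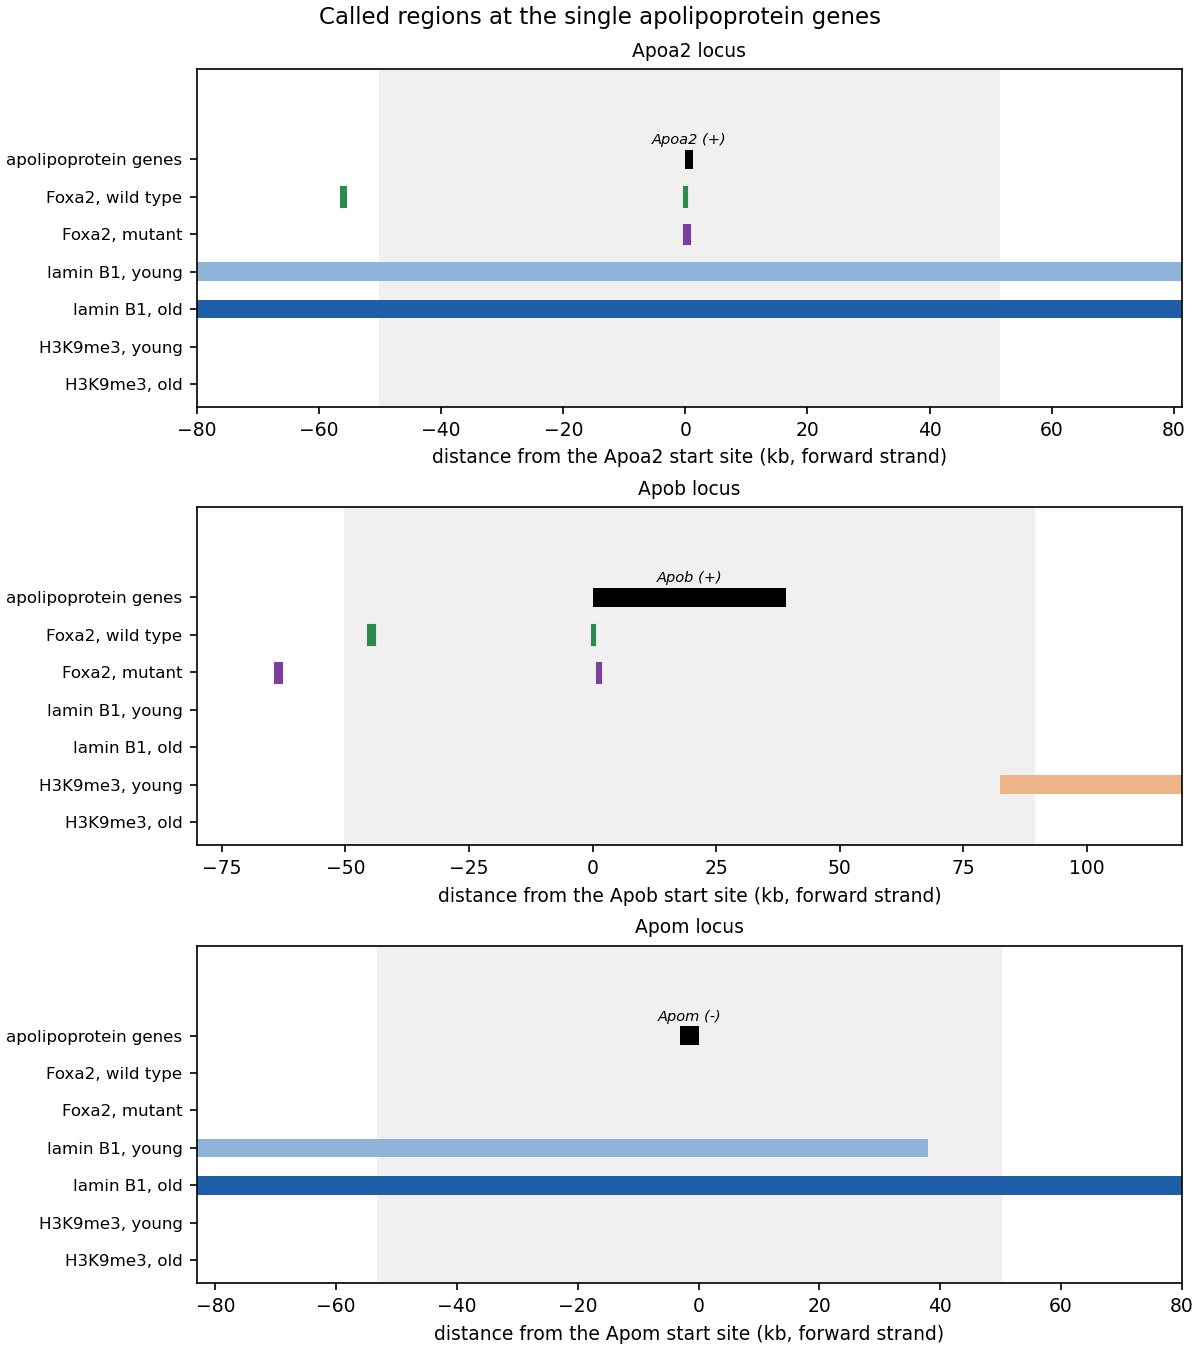
Maps of the Apoa2 (top), Apob (middle) and Apom (bottom) loci, with the x axis as distance in kb on the forward strand from the start site of each gene, the locus with its flanks in grey, genes in black and called sites and domains in colour. Foxa2 sites stand at the start sites of Apoa2 and Apob and none is drawn at Apom, while lamin B1 bars are present at Apoa2 and Apom at both ages and absent at Apob.

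Each locus was also described by 6 calls, 1 per list, over its window. Apob was called in young H3K9me3 and both Foxa2 lists and in no other, a combination of 108 protein-coding genes (0.492%). The Apoa1 cluster, taken as a whole, was called in old lamin B1, old H3K9me3 and both Foxa2 lists. Of its genes Apoa5 alone had these calls in its own window, like 398 protein-coding genes (1.81%). The window of Apoa4 had no H3K9me3 (635 genes, 2.89%), and those of Apoa1 and Apoc3 had neither H3K9me3 nor a mutant site (353 genes, 1.61%). Among 54 other genes of lipoprotein metabolism none had all 6 calls of Apob. With all 6 calls of the Apoa1 cluster there were 2, Lipc, which encodes hepatic lipase, and Saa4, which encodes an apolipoprotein of high density lipoprotein. The combination of Apoa2 was found for 1031 genes (4.70%), that of the Apoe cluster for 584 (2.66%) and that of Apom for 1414 (6.45%).

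The other genes of the pathway were counted in the same way, from a list of 54 genes for further apolipoproteins, particle assembly, lipases, receptors, transporters and regulators. A wild-type Foxa2 site was in the window of 31 (57.4%, 95% Wilson interval 44.2 to 69.7%) and a mutant site in that of 37 (68.5%, 55.3 to 79.3%), beside the 30.5% and 38.5% given above. The intervals cover counting error only and take the 54 genes as independent, although neighbouring genes on the list can share a site. A site midpoint was within 5 kb of the start site of 11 genes in the wild type (20.4%, beside 5.52% of protein-coding genes) and 9 in the mutants (16.7%, beside 5.57%). In both genotypes it was so for 7 (13.0%, beside 1.91%). Those 7 were Apof and Apon, which encode minor apolipoproteins, Lcat, the enzyme that esterifies cholesterol in high density lipoprotein, Sar1b, needed to move lipoproteins out of the endoplasmic reticulum, the receptors Lrp1 and Sort1, and Pon1, an esterase of high density lipoprotein. At Apof the midpoints were 0.105 kb and 0.0860 kb from the start site, and at Lcat 0.898 kb and 0.664 kb. Among the genes with a midpoint that near in the wild type alone were Apoc4, Lpl, which encodes lipoprotein lipase, and Nr0b2, a nuclear receptor that represses bile acid synthesis. At Nr0b2 the nearest wild-type site was 0.488 kb and the nearest mutant site 17.0 kb from the start site. In the mutants alone it was so at Apol6 and at Nr1h4, the bile acid receptor, whose nearest site was 0.161 kb away in the mutants and 100 kb away in the wild type.

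Lamin B1 domains touched 31 of the 54 pathway genes in young livers (57.4%, interval 44.2 to 69.7%), beside 38.8% of protein-coding genes. In old livers they touched 50 (92.6%, interval 82.4 to 97.1%), beside 64.8%. Outside in young and touched in old livers were 20 (37.0%, beside 30.1%), and touched in young and outside in old livers was 1 (1.85%, beside 4.14%). That gene was Pon3, a paralogue of Pon1 that was named after its values were seen. Outside at both ages were 3 (5.56%, beside 31.0%). H3K9me3 touched 5 of these genes in young livers (9.26%, interval 4.02 to 19.9%, beside 16.5%) and 18 in old livers (33.3%, interval 22.2 to 46.6%, beside 29.6%), so its share in old livers was near the background.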

How the data were processed

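Livers were profiled by ChIP-Seq for lamin B1 and H3K9me3 at 3 and 21 months and for Foxa2 in wild-type and Zmpste24 mutant mice aged 12 weeks. The authors mapped reads to mm10 by BWA, discarded duplicates and reads without a unique position, and pooled the replicates. Epic (10 kb windows, gap size 3) gave the lamin B1 domains, and PeakSeq, run against input on mutant reads thinned to the wild-type number, gave the Foxa2 sites. The caller of the H3K9me3 regions is not given in the sources used here, although the submitters' processing notes name SICER. What the authors deposited for these lists is positions (start and end), without heights or scores. The name and the number of regions tie the lamin B1 and Foxa2 lists to their conditions, and the name alone the H3K9me3 lists, since the number of H3K9me3 regions was not that of the study. H3K9me2 and Foxa2 in old livers were not analysed here.

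A region was counted where at least 1 bp overlapped the gene body or a window of 50 kb around it. Distances ran from start sites to site midpoints. The background was 21938 protein-coding genes of GENCODE vM21, and sequence came from GRCm38.p6. Coordinates count the first base as 1. Shares have Wilson intervals at 95% where given. Overlap, coverage and word code was tested on simulated data. Genes named beside the 10 members are, by rule, those of the pathway list with a site within 5 kb of the start site, those with all calls of Apob or of the Apoa1 cluster, and those at a described site. The members and lists were chosen with earlier results of these data known. Alternatives for the flank, overlap, assignment, background, region length and words were computed. Python 3.11.15, numpy 2.4.6, pandas 2.3.3, scipy 1.17.1 and matplotlib 3.10.9 were used. A gene of the pathway list that the rule would name is not reported here.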

Additional observations from a re-analysis of the deposited data

How the results depend on the processing

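Calls moved mainly with the width of the window. With the gene body alone, 2 sites and 2 genes were called in each genotype and 1 site in both, lamin B1 covered 6.55% of bases in young and 41.4% in old livers, and H3K9me3 covered 0. With 10 kb flanks, 6 genes had a wild-type and 4 a mutant site, young lamin B1 covered 25.2% and H3K9me3 0 at both ages. With 100 kb flanks H3K9me3 covered 5.77% in young and 12.7% in old livers, more than 1.5 times the values with 50 kb, although inside wide Wilson intervals over 61 windows of 10 kb. Those intervals take neighbouring windows as independent, although a called region can span several, so they measure no spread of these data. Young H3K9me3 also covered 0 with regions of at least 50 kb and with 50 kb on both sides of the start site, a setting added after seeing the data. With that setting 9 of the genes had a wild-type and 6 a mutant site, beside 24.6% and 30.8% of protein-coding genes. Assigning sites to the nearest start site left 4 genes with a wild-type and 3 with a mutant site, with 8 mutant sites in all, those outside the windows lying upstream of Apob. For the gene body alone, the other flanks and this assignment, no share over all protein-coding genes was computed. The counts of genes under those settings thus have no background beside them. At 50% reciprocal overlap 0 sites were shared. In the central 200 bp, 1 mutant site held the forkhead core. With TATTTAC accepted beside TGTTTAC, 2 wild-type and 3 mutant sites held a forkhead word. Over all 55413 annotated genes, 23.2% had a wild-type and 31.6% a mutant site, lamin B1 touched 29.2% (young) and 51.7% (old), and H3K9me3 18.7% and 26.8%. The gene bodies touched by lamin B1 (2 in young, 9 in old livers) were the same in number with regions of at least 50 kb.

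No paired analysis was possible because each condition is 1 list of merged replicates. For the same reason the calls were not repeated without a replicate or at another score. Depth differed between the ages for lamin B1 and H3K9me3 and its part in the calls was not tested, and a missing call does not show that a factor was absent.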
